A study of Caenorhabditis elegans with 21 samples.

Results

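The levels of 10 genes that build the kinetochore and direct chromosome segregation were followed in poly(A) RNA of *hpl-2*(*tm1489*) mutant and wild-type N2 *Caenorhabditis elegans*. The genes were named by symbol: *hcp-3*, *hcp-4*, *knl-1*, *knl-2*, *knl-3*, *ndc-80*, *him-10*, *bub-1*, *air-2* and *bir-1*. All 10 of 10 were found among the 45461 genes listed, and all 10 passed the filter on low counts that left 17498 genes for testing. HPL-2 is a worm homolog of the heterochromatin protein HP1, and the mutant animals carry the *tm1489* deletion of its gene. RNA came from whole animals grown at 20°C, with 3 biological replicates of *hpl-2*(*tm1489*) and 2 of N2. The sample labels give L4 larvae for *hpl-2*(*tm1489*) and young adults for N2, whereas the study's list of sequenced samples gives L4 for both. If the labels are right, genotype and stage cannot be told apart in any value below. Each *hpl-2*(*tm1489*) library came from the same mutant strain, and the libraries hold all tissues of the animal, so fewer cells of a type and less RNA per cell cannot be told apart either.

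The kinetochore is the protein assembly through which chromosomes attach to spindle microtubules. *C. elegans* chromosomes are holocentric, with centromeric chromatin and kinetochores spread along their length rather than gathered at a single site. Nucleosomes with a centromeric histone H3 variant recruit an inner layer, which recruits an outer microtubule-binding layer, while checkpoint proteins delay anaphase until attachment and the chromosomal passenger complex corrects faulty attachment. In the adult worm nearly all dividing cells are in the germ line, and oocytes are loaded with RNA and protein for the divisions of the early embryo.

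Counts on genes totalled 95252804 to 114718047 in the *hpl-2*(*tm1489*) libraries and 66490671 to 80724052 in the N2 libraries. The 10 genes had between 570 and 19044 counts in each library, so counting error was small beside the spread between libraries. Levels are given as CPM, the count of a gene relative to the TMM-scaled total of its library, and since no transcript lengths were used, levels were not compared between genes. Across all tested genes 61.5% were called at an adjusted p under 0.1 by edgeR's quasi-likelihood test with Benjamini-Hochberg adjustment: 33.9% were higher in *hpl-2*(*tm1489*) and 27.6% were lower. The *hpl-2* gene itself averaged 29.0 ± 2.03 CPM in *hpl-2*(*tm1489*) and 38.8 ± 0.205 CPM in N2 (SD, n = 3 and 2), a log2 fold change of -0.42 (SE 0.26, edgeR adjusted p = 0.192). Without *hpl-2*(*tm1489*) replicate 2 it was -0.55 (adjusted p = 0.0279). With 1 count per gene, reads inside and outside the deleted stretch were not separated, so this level does not check the deletion.

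*hpl-2*(*tm1489*) replicate 2 stood apart from the other mutant libraries. Its median absolute log2 difference was 0.461 from replicate 1 and 0.528 from replicate 3, against 0.238 between replicates 1 and 3 and 0.355 between the N2 libraries. The difference followed the genomic span of genes: the median log2 ratio of replicate 2 over the other mutant libraries was 0.39 in the shortest of 4 equal classes of genes by span and -0.32 in the longest. The comparison of the groups followed it too, with a median log2 fold change of 0.78 in the shortest class and -0.38 in the longest. Values without this library are given for each named gene whose call it changed, except for genes named only as neighbours or overlapping genes. Counts on rows of rRNA genes took 1.06, 3.44 and 7.05% of the library in *hpl-2*(*tm1489*) replicates 1, 2 and 3, against 0.26 and 0.183% in N2.

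Of the 10 genes, 8 were higher in *hpl-2*(*tm1489*) than in N2 (edgeR adjusted p under 0.1, where 33.9% of all tested genes were higher) and 0 were lower. No gene of the 10 was lower at an unadjusted p under 0.05 (0 genes) or with DESeq2 (0 genes). In the same 8 genes all 3 mutant libraries were above both N2 libraries, a pattern found in 39.0% of all tested genes, and in 0 of the 10 were all mutant libraries below both N2 libraries, as in 33.0% of all tested genes. The median log2 fold change of the 10 genes was 1.18, with a range of 0.57 to 2.46, beside a median of 0.16 over all genes tested. The genes not called, *hcp-4* and *bub-1*, had log2 fold changes of 0.72 and 0.57 and overlapping libraries. Without *hpl-2*(*tm1489*) replicate 2 all 10 were called higher. Without N2 replicate 1 the number called was 6, with *hcp-3* (0.79, edgeR adjusted p = 0.207) and *knl-3* (0.82, adjusted p = 0.149) no longer called, and without N2 replicate 2 it was 7, with *knl-1* (0.91, adjusted p = 0.181) no longer called.

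**Figure D1:**
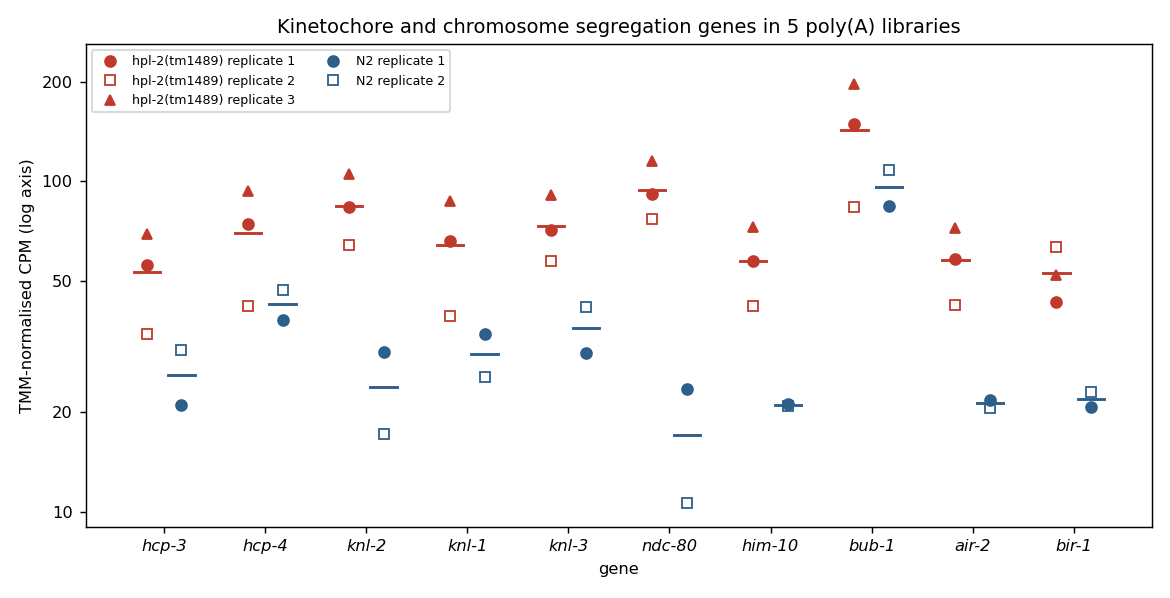
Level of each of the 10 genes in every library, as TMM-normalised CPM on a log axis, with *hpl-2*(*tm1489*) in red to the left of N2 in blue and the group mean as a bar (n = 3 and 2). For *ndc-80* the mutant libraries sit between 76.6 and 115 CPM and the N2 libraries at 10.6 and 23.6 CPM, whereas for *hcp-4* and *bub-1* mutant replicate 2 does not lie above both N2 libraries.

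Of these genes 3 act at centromeric chromatin. HCP-3 is the centromeric histone H3 variant, the CENP-A homolog on which the kinetochore is built. *hcp-3* had 55.6, 34.4 and 69.0 CPM in *hpl-2*(*tm1489*) replicates 1, 2 and 3, against 21.1 and 30.9 CPM in N2 replicates 1 and 2. The groups did not overlap, but mutant replicate 2 was close above N2 replicate 2. The means were 53.0 ± 17.5 CPM in *hpl-2*(*tm1489*) and 25.98 ± 6.90 CPM in N2 (SD, n = 3 and 2), a log2 fold change of 1.03 (SE 0.36, 2.04-fold, edgeR adjusted p = 0.0339). This call was lost without N2 replicate 1 (0.79, adjusted p = 0.207). *hcp-3* has a close paralog, *cpar-1*, and only uniquely mapped reads were counted, so reads that match both genes were not in either count.

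KNL-2 is the Myb-domain protein, related to human M18BP1, that is needed to load HCP-3 onto chromatin. *knl-2* had 83.8, 64.1 and 105 CPM in *hpl-2*(*tm1489*) replicates 1, 2 and 3, against 30.4 and 17.2 CPM in N2. Every mutant library was above the higher N2 library, and of the 10 genes only *ndc-80* had a larger ratio between its N2 libraries. The log2 fold change was 1.82 (SE 0.36, 3.54-fold, edgeR adjusted p = 0.00212). In the RefSeq annotation of a later assembly *knl-2* overlaps the acyl-CoA dehydrogenase gene *acdh-3*, which had 108452 counts over the 5 libraries against 30915 for *knl-2* and a log2 fold change of 0.69. Whether counting used the strand is not given in the sources used here, so reads from the stretch the genes share could not be assigned with certainty.

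HCP-4, the CENP-C homolog, binds HCP-3 chromatin and recruits the outer kinetochore. *hcp-4* had 74.0, 41.9 and 93.6 CPM in *hpl-2*(*tm1489*) replicates 1, 2 and 3, against 37.95 and 47.0 CPM in N2. Mutant replicates 1 and 3 were above both N2 libraries and mutant replicate 2 lay between them. The means were 69.8 ± 26.1 CPM in *hpl-2*(*tm1489*) and 42.5 ± 6.40 CPM in N2 (SD, n = 3 and 2), a log2 fold change of 0.72 (SE 0.36) that did not pass the test (edgeR adjusted p = 0.115). Without mutant replicate 2 it was 0.88 (adjusted p = 0.00538). Summed over the 3 centromeric genes, the level was 213, 140 and 267 CPM in *hpl-2*(*tm1489*) and 89.4 and 95.0 CPM in N2, a ratio of the means of 2.24.

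The outer kinetochore was represented by its scaffold and by subunits of its main complexes. KNL-1 is the scaffold that joins the Mis12 and Ndc80 complexes into the microtubule-binding network and receives the checkpoint proteins. *knl-1* had 65.9, 39.1 and 87.2 CPM in *hpl-2*(*tm1489*) replicates 1, 2 and 3, against 34.5 and 25.5 CPM in N2. The groups did not overlap, but mutant replicate 2 was nearer to the N2 libraries than to the other mutant libraries. The log2 fold change was 1.09 (SE 0.37, 2.14-fold, edgeR adjusted p = 0.0297), and it was 0.91 without N2 replicate 2 (adjusted p = 0.181).

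KNL-3 is a subunit of the Mis12 complex, which links the outer kinetochore to the inner layer. *knl-3* had 71.0, 57.3 and 90.5 CPM in *hpl-2*(*tm1489*) replicates 1, 2 and 3, against 30.2 and 41.5 CPM in N2. All mutant libraries were above N2, with means of 72.9 ± 16.7 CPM in *hpl-2*(*tm1489*) and 35.8 ± 7.99 CPM in N2 (SD, n = 3 and 2). The fold change was 2.03 (SE 0.31 on the log2 scale, edgeR adjusted p = 0.0184), and without N2 replicate 1 it was 0.82 on the log2 scale (adjusted p = 0.149). The log2 ratio of *knl-1* to *knl-3* averaged -0.24 ± 0.27 in *hpl-2*(*tm1489*) and -0.26 ± 0.63 in N2 (SD, n = 3 and 2), a difference of 0.02 that is far within the spread of the libraries.

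NDC-80 and HIM-10 (the Nuf2 homolog) form the arm of the Ndc80 complex that holds the microtubule. *ndc-80* had the largest difference of the 10 genes, with 91.3, 76.6 and 115 CPM in *hpl-2*(*tm1489*) replicates 1, 2 and 3, against 23.6 and 10.6 CPM in N2. The lowest mutant library was above both N2 libraries, and N2 replicate 2, with 570 counts, was well below N2 replicate 1, with 1895 counts. The means were 94.2 ± 19.3 CPM in *hpl-2*(*tm1489*) and 17.1 ± 9.17 CPM in N2 (SD, n = 3 and 2), a log2 fold change of 2.46 (SE 0.40, 5.51-fold, edgeR adjusted p = 0.000766), which was at percentile 90.1 of all tested genes. It was 3.16 without N2 replicate 1 and 2.01 without N2 replicate 2, and *ndc-80* was called in both cases.

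*him-10* had 57.2, 41.8 and 72.6 CPM in *hpl-2*(*tm1489*) replicates 1, 2 and 3, against 21.2 and 20.9 CPM in N2. The N2 libraries were almost equal and every mutant library was higher. The log2 fold change was 1.44 (SE 0.32, 2.72-fold, edgeR adjusted p = 0.00398). The log2 ratio of *ndc-80* to *him-10* counts averaged 0.74 ± 0.12 in *hpl-2*(*tm1489*) and -0.41 ± 0.81 in N2 (SD, n = 3 and 2), with every mutant library above both N2 libraries, although N2 replicates 1 and 2, at 0.16 and -0.98, were far apart. Summed over *knl-1*, *knl-3*, *ndc-80* and *him-10*, the level was 285, 215 and 365 CPM in *hpl-2*(*tm1489*) and 109 and 98.5 CPM in N2, a ratio of 2.77.

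BUB-1 is the checkpoint kinase that docks on KNL-1 and that, in worm embryos and oocytes, also acts in chromosome congression. *bub-1* had 149, 83.6 and 196 CPM in *hpl-2*(*tm1489*) replicates 1, 2 and 3, against 84.4 and 108 CPM in N2. Mutant replicates 1 and 3 were above both N2 libraries, and mutant replicate 2 was just under the lower of them. The means were 143 ± 56.6 CPM in *hpl-2*(*tm1489*) and 96.3 ± 16.8 CPM in N2 (SD, n = 3 and 2), a log2 fold change of 0.57 (SE 0.36) that did not pass the test (edgeR adjusted p = 0.205). Without mutant replicate 2 it was 0.75 (adjusted p = 0.0137), so the call for *bub-1* depended on that library.

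AIR-2, the Aurora B kinase, and BIR-1, a survivin-like protein, belong to the chromosomal passenger complex. *air-2* had 58.1, 42.2 and 72.3 CPM in *hpl-2*(*tm1489*) replicates 1, 2 and 3, against 21.8 and 20.7 CPM in N2. All mutant libraries were above N2, and the log2 fold change was 1.44 (SE 0.32, 2.71-fold, edgeR adjusted p = 0.00392), close to that of *him-10*.

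*bir-1* had 43.1, 63.1 and 52.0 CPM in *hpl-2*(*tm1489*) replicates 1, 2 and 3, against 20.8 and 23.0 CPM in N2. It differed from the other genes in the order of the mutant libraries, with replicate 2 the highest instead of the lowest. The log2 fold change was 1.27 (SE 0.29, 2.41-fold, edgeR adjusted p = 0.0051). The log2 ratio of *air-2* to *bir-1* was 0.43, -0.58 and 0.48 in *hpl-2*(*tm1489*) and 0.07 and -0.16 in N2, so the spread within the mutant was larger than the difference between the groups.

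Over all 10 genes the summed level was 749, 544 and 953 CPM in *hpl-2*(*tm1489*) replicates 1, 2 and 3 and 326 and 345 CPM in N2. The lowest mutant library was above both N2 libraries, and the ratio of the means was 2.23. Among the mutant libraries replicate 3 was the highest and replicate 2 the lowest in 9 of the 10 genes, *bir-1* being the exception. Replicate 3 was also the library with the largest share of rRNA counts, and the part of that share in these levels was not tested. In log2 CPM, replicate 2 differed from the geometric mean of replicates 1 and 3 by -1.03 for *bub-1* to -0.42 for *ndc-80* in these 9 genes, and by 0.41 for *bir-1*. By genomic span *bir-1* was at percentile 6.64 of the tested genes, the shortest of the 10, and the others were at percentiles 20.7 to 69.5. When the trend of each library with gene span was removed, 5 of the 10 genes were called higher, beside 30.3% of all tested genes in that fit. *hcp-3* (0.47, edgeR adjusted p = 0.291), *knl-3* (0.52, adjusted p = 0.167) and *bir-1* (0.46, adjusted p = 0.127) were then not called. With the trend removed and mutant replicate 2 left out as well, a setting chosen after the data were seen, all 10 were called. *knl-2*, *ndc-80*, *him-10* and *air-2* were called higher under every alternative run.

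**Figure D2:**
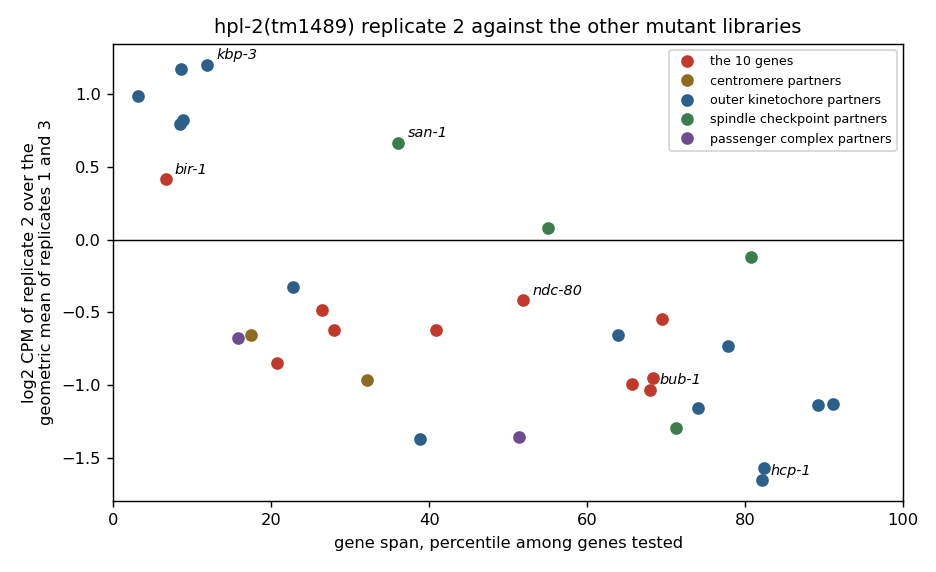
Log2 CPM of *hpl-2*(*tm1489*) replicate 2 over the geometric mean of replicates 1 and 3, plotted against the percentile of each gene's genomic span among the tested genes, with 1 point per gene. *bir-1* at 0.41 lies with the short *kbp* genes above the zero line, and the other 9 of the 10 genes lie below it, down to -1.03 for *bub-1*. *san-1* (0.67, percentile 36.1) and *mdf-1* (0.08, percentile 55) also lie above the line. *csc-1* (-0.68, percentile 15.8) and *cpar-1* (-0.65, percentile 17.4) lie below it.

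The other genes of the same assemblies were then examined, from lists drawn up by function with earlier results of these data known. At the centromere, both partners were higher. *cpar-1*, which encodes the second CENP-A-like histone of the worm, had 76.2, 51.8 and 87.1 CPM in *hpl-2*(*tm1489*) replicates 1, 2 and 3, against 7.89 and 6.71 CPM in N2. The groups were far apart, with a log2 fold change of 3.30 (SE 0.35, 9.82-fold, edgeR adjusted p = 8.16e-05), or 2.70 with the span trend removed. The log2 ratio of *hcp-3* to *cpar-1* averaged -0.46 ± 0.13 in *hpl-2*(*tm1489*) and 1.81 ± 0.55 in N2 (SD, n = 3 and 2), a difference of -2.27. This ratio is of counts not corrected for transcript length, so only its difference between the groups can be read. *lin-53*, a RbAp48-like histone chaperone, had a log2 fold change of 0.91 (edgeR adjusted p = 0.0463). With the span trend removed it was 0.48, with upper quartile scaling 0.56 and with the replicate block 0.61. In these fits *lin-53* was not called. It was not called without mutant replicate 1 (0.76, adjusted p = 0.105), mutant replicate 3 (0.66, adjusted p = 0.129), N2 replicate 1 (0.84, adjusted p = 0.190) or N2 replicate 2 (1.01, adjusted p = 0.131).

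Of 14 outer kinetochore partners, 8 were higher, 1 was lower and 5 were not called, with a median log2 fold change of 0.84. This is 57.1% higher and 7.14% lower, beside 33.9% and 27.6% of all tested genes. The number higher was 11 without mutant replicate 2 and 6 without mutant replicate 1 or 3. With the replicate block it was 5 (35.7% beside 25.2% of all tested genes). The largest differences were in the small subunits *kbp-1* to *kbp-5*. KBP-1 and KBP-2 are Mis12 complex subunits beside KNL-3. *kbp-1* had 57.4, 123 and 84.96 CPM in *hpl-2*(*tm1489*) replicates 1, 2 and 3, against 7.68 and 6.85 CPM in N2, a log2 fold change of 3.61 (SE 0.40, 12.2-fold, edgeR adjusted p = 0.0001). *kbp-2* had a log2 fold change of 2.49 (SE 0.44, adjusted p = 0.00116), or 1.90 without mutant replicate 2. With the span trend removed the values of *kbp-1* and *kbp-2* were 2.81 and 1.68. By contrast *mis-12*, the fourth subunit, had 20.4, 17.5 and 23.6 CPM in *hpl-2*(*tm1489*) and 12.8 and 15.3 CPM in N2. Its libraries did not overlap but it did not pass the test (0.55, adjusted p = 0.119), and with the span trend removed its log2 fold change was close to zero and of the other sign (-0.0009). *mis-12* was called higher without mutant replicate 2 (0.55, adjusted p = 0.0446).

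KBP-3 and KBP-4 complete the Ndc80 complex with NDC-80 and HIM-10. *kbp-3* had 77.8, 201 and 97.9 CPM in *hpl-2*(*tm1489*) replicates 1, 2 and 3, against 15.2 and 12.1 CPM in N2, a log2 fold change of 3.20 (SE 0.45, 9.20-fold, edgeR adjusted p = 0.000371). *kbp-4* followed at 3.19 (SE 0.42, adjusted p = 0.000241). Mutant replicate 2 was the highest library for both genes, and with the span trend removed the log2 fold changes of *kbp-3* and *kbp-4* were 2.44 and 2.19. Without mutant replicate 2 that of *kbp-3* was 2.58. *kbp-5*, whose product binds KNL-1, had a log2 fold change of 2.05 (SE 0.35, 4.13-fold, adjusted p = 0.00106), or 1.25 with the span trend removed. All 5 *kbp* genes have short spans, at percentiles 3.11 to 11.9 of the tested genes, and all 5 were called higher under every alternative run.

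The proteins recruited to the outer layer were mixed. *hcp-1*, 1 of a pair of CENP-F-like genes, had 114, 41.7 and 151 CPM in *hpl-2*(*tm1489*) replicates 1, 2 and 3, against 48.3 and 54.5 CPM in N2. Mutant replicate 2 was below both N2 libraries, and the call (0.99, edgeR adjusted p = 0.0959) was lost when mutant replicate 1 (0.80, adjusted p = 0.149), mutant replicate 3 (0.58, adjusted p = 0.291), N2 replicate 1 (0.92, adjusted p = 0.260) or N2 replicate 2 (1.09, adjusted p = 0.199) was left out.

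Its paralog *hcp-2* was called at 0.69 (edgeR adjusted p = 0.0833). The call was likewise lost without mutant replicate 1 (0.58, adjusted p = 0.209), mutant replicate 3 (0.47, adjusted p = 0.241), N2 replicate 1 (0.78, adjusted p = 0.185) or N2 replicate 2 (0.63, adjusted p = 0.292). Of the Rod-Zw10-Zwilch complex, which brings dynein and checkpoint proteins to the kinetochore, *czw-1* was higher (1.02, edgeR adjusted p = 0.0161), whereas *rod-1* (0.32, adjusted p = 0.478) and *zwl-1* (0.51, adjusted p = 0.275) were not called. Without mutant replicate 2 *rod-1* (0.51, adjusted p = 0.0387) and *zwl-1* (0.70, adjusted p = 0.0150) were called higher.

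*cls-2*, the CLASP homolog that HCP-1 and HCP-2 recruit, was the only outer kinetochore partner called lower. It had 42.3, 20.4 and 49.0 CPM in *hpl-2*(*tm1489*) replicates 1, 2 and 3, against 65.2 and 100.5 CPM in N2. No mutant library reached the lower N2 library, and the log2 fold change was -1.15 (SE 0.38, edgeR adjusted p = 0.0275), or -0.80 without N2 replicate 2 (adjusted p = 0.217). *klp-7*, a microtubule-depolymerising kinesin, was not called (-0.83, adjusted p = 0.135), but was called lower without mutant replicate 1 (-1.01, adjusted p = 0.0694), mutant replicate 2 (-0.57, adjusted p = 0.0457) or mutant replicate 3 (-1.24, adjusted p = 0.0382). *spdl-1*, the Spindly homolog, was not called either (-0.51, adjusted p = 0.312).

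Of the 4 spindle checkpoint partners 3 were higher, beside 33.9% of all tested genes. *san-1*, the Mad3 homolog, had 64.3, 114 and 80.2 CPM in *hpl-2*(*tm1489*) replicates 1, 2 and 3, against 10.2 and 5.20 CPM in N2, a log2 fold change of 3.48 (SE 0.42, 11.1-fold, edgeR adjusted p = 0.000167). *mdf-2*, the Mad2 homolog, had 72.0, 70.8 and 81.9 CPM in *hpl-2*(*tm1489*) and 16.9 and 17.8 CPM in N2, with little spread within either group and a log2 fold change of 2.11 (adjusted p = 0.000248). *mdf-1*, the Mad1 homolog, was at 1.52 (adjusted p = 0.00177). *bub-3*, whose product binds BUB-1, was not called, at 0.07 (adjusted p = 0.898), and its libraries overlapped, with 65.5, 29.6 and 81.0 CPM in *hpl-2*(*tm1489*) and 46.8 and 65.2 CPM in N2. The sign of the *bub-3* value turned under upper quartile scaling (-0.29) and with DESeq2 (-0.01). *bub-1* and *bub-3* were thus the checkpoint genes that were not called, and the difference between these genes and the others was not tested.

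In the passenger complex *csc-1*, a borealin-like subunit, had 90.9, 63.3 and 113 CPM in *hpl-2*(*tm1489*) replicates 1, 2 and 3, against 26.1 and 29.9 CPM in N2. It was higher in every mutant library, by 1.67 on the log2 scale (SE 0.32, edgeR adjusted p = 0.00199), or by 1.05 with the span trend removed. *icp-1*, the INCENP homolog that anchors the complex, had 52.3, 22.9 and 65.7 CPM in *hpl-2*(*tm1489*) and 26.6 and 40.7 CPM in N2, and was not called (0.48, adjusted p = 0.367). Without mutant replicate 2, *icp-1* was called higher at 0.72 (adjusted p = 0.0301).

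**Figure D3:**
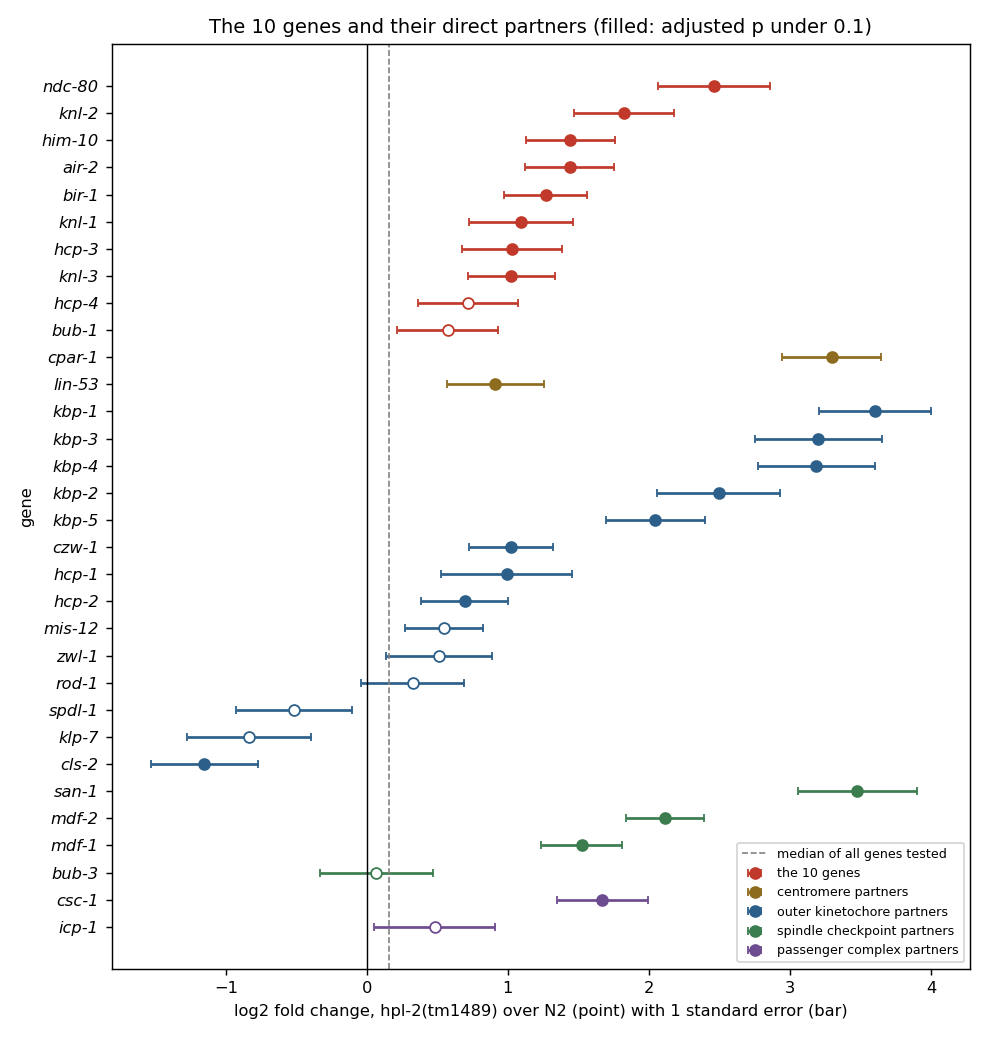
Log2 fold change of *hpl-2*(*tm1489*) over N2 for the 10 genes and their direct partners, with 1 standard error as a bar, filled points for an adjusted p under 0.1 and a dashed line at the median of all tested genes (0.16). The 10 genes lie between 0.57 and 2.46, *cpar-1*, *kbp-1*, *kbp-3*, *kbp-4* and *san-1* lie above 3, and *cls-2* lies at -1.15.

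Beyond the kinetochore, 5 of 12 cohesin and separase genes, 4 of 8 condensin genes, 7 of 11 genes of the anaphase-promoting complex and its activators, and 12 of 22 spindle and centrosome genes were higher, which is 41.7, 50, 63.6 and 54.5% beside 33.9% of all tested genes. These counts moved with single libraries and with the replicate block. With the block the lists had 2, 3, 2 and 3 genes higher in the same order. This is 16.7, 37.5, 18.2 and 13.6% beside 25.2% of all tested genes. The cohesin list had 8 genes higher without mutant replicate 2 (66.7% beside 33.9% of all tested genes). It had 3 without mutant replicate 1 (25% beside 29.4%) and 2 without mutant replicate 3 (16.7% beside 29.8%). The condensin list had 6 without mutant replicate 2 (75% beside 33.9%). It had 3 without mutant replicate 1 (37.5% beside 29.4%) or mutant replicate 3 (37.5% beside 29.8%). The anaphase-promoting complex list had 9 without mutant replicate 2 (81.8% beside 33.9%). It had 4 without mutant replicate 1 (36.4% beside 29.4%) and 3 without mutant replicate 3 (27.3% beside 29.8%). The spindle list had 18 without mutant replicate 2 (81.8% beside 33.9%). It had 10 without mutant replicate 1 (45.5% beside 29.4%) and 7 without mutant replicate 3 (31.8% beside 29.8%). Without N2 replicate 1 the median log2 fold changes were 0.57, 0.77, 0.80 and 0.70 in the same order, beside 0.25 for all tested genes. Without N2 replicate 2 they were 0.615, 0.64, 0.70 and 1.00, beside 0.17. The securin gene *ify-1* was higher by 1.08 (edgeR adjusted p = 0.0355) and the cohesin subunit gene *him-1* was not called (0.67, adjusted p = 0.124). The condensin subunit gene *smc-4* was higher by 1.37 (adjusted p = 0.0204), and *dpy-26*, a second condensin gene, was not called (0.67, adjusted p = 0.130). *ify-1* was not called with the span trend removed (0.49, adjusted p = 0.314), nor without mutant replicate 3 (0.75, adjusted p = 0.103) or N2 replicate 1 (0.93, adjusted p = 0.176), and *smc-4* was not called without N2 replicate 2 (0.99, adjusted p = 0.157). Without mutant replicate 2 *him-1* (0.78, adjusted p = 0.0285) and *dpy-26* (0.82, adjusted p = 0.0116) were called higher.

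Both activators of the anaphase-promoting complex were called, in opposite directions. *fzy-1*, the Cdc20 homolog that acts in mitosis, was higher by 1.28 (edgeR adjusted p = 0.0127). *fzr-1*, the Cdh1 homolog, had 32.0, 18.1 and 34.9 CPM in *hpl-2*(*tm1489*) replicates 1, 2 and 3, against 47.1 and 60.2 CPM in N2, and was lower (-0.92, adjusted p = 0.0382). Without N2 replicate 2 *fzr-1* was not called (-0.72, adjusted p = 0.220). *mat-1*, a core subunit, was not called (0.29, adjusted p = 0.479), but was called higher without mutant replicate 2 (0.44, adjusted p = 0.0622). Among the spindle genes *spd-5*, the centrosome scaffold, was higher by 1.49 (adjusted p = 0.00332), and *air-1*, the Aurora A kinase, by 0.68 (adjusted p = 0.0851). The *air-1* call was lost without mutant replicate 1 (0.57, adjusted p = 0.201), mutant replicate 3 (0.47, adjusted p = 0.221), N2 replicate 1 (0.56, adjusted p = 0.323) or N2 replicate 2 (0.84, adjusted p = 0.164).

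Together the 75 tested partners had 42 genes higher and 2 lower, a share of 56% higher beside 33.9% and of 2.67% lower beside 27.6% of all tested genes. Their median log2 fold change was 0.72, beside 1.18 for the 10 genes and 0.16 for all genes, and 66 of the 75 values were positive. The lower genes were *cls-2* and *fzr-1*. Leaving out 1 library gave 25 to 59 partners higher. The count was 59 without mutant replicate 2 (78.7% beside 33.9% of all tested genes), 31 without mutant replicate 1 (41.3% beside 29.4%) and 26 without mutant replicate 3 (34.7% beside 29.8%). It was 26 without N2 replicate 1 (34.7% beside 30.8%) and 25 without N2 replicate 2 (33.3% beside 26.2%). The share of partners higher was thus close to that of all genes when mutant replicate 3 or N2 replicate 1 was left out. Under upper quartile scaling, which moved the median of all genes to -0.16, 28 partners were higher and 6 lower (37.3% higher beside 25.8% of all tested genes), and the median of the 10 genes was 0.85. Relative to the median of all genes, the median of the 10 genes was 1.02 with TMM and 1.01 with upper quartile scaling. It was 0.79 with the span trend removed, 0.85 with no filter on low counts and 0.895 with the replicate block. Without mutant replicate 2 it was 1.18.

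**Figure D4:**
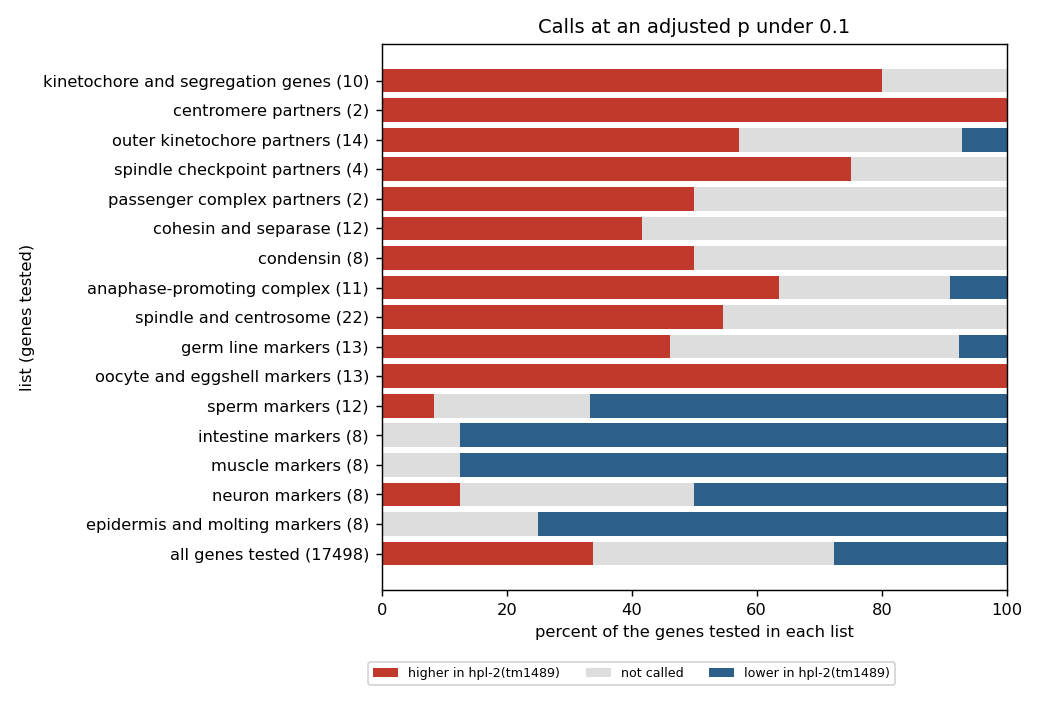
Share of the tested genes of each list called higher (red), not called (grey) or lower (blue) in *hpl-2*(*tm1489*) against N2, with the number tested in parentheses. Of the 10 kinetochore and segregation genes 8 were higher, beside 33.9% of all tested genes, and all 13 oocyte and eggshell markers were higher, while 7 of 8 muscle markers were lower.

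Markers of cell types differed between the groups too, in both directions. All 13 oocyte and eggshell markers were higher, beside 33.9% of all tested genes. Their summed level was 1334 to 4598 CPM in *hpl-2*(*tm1489*) and 562 to 806 CPM in N2. In 11 of them all mutant libraries were above both N2 libraries. Among the fits that kept both N2 libraries, the number higher was lowest at 10 with the replicate block, and it was 11 without mutant replicate 3. The median log2 fold change of this list was 2.37, and 2.10 without N2 replicate 1. Of 13 general germ line markers 6 were higher, which is 46.2% beside 33.9% of all tested genes. With the replicate block 3 were higher (23.1% beside 25.2%). Only *glh-1* (-0.67, edgeR adjusted p = 0.0831) was lower in the main fit. The sums of this list overlapped (1368 to 3810 CPM in *hpl-2*(*tm1489*) and 1960 to 2793 CPM in N2). *glh-1* was not called without N2 replicate 1 (-0.87, adjusted p = 0.105) or N2 replicate 2 (-0.43, adjusted p = 0.427). Of 12 sperm markers 1, *msp-78* (1.31, adjusted p = 0.00356), was higher and 8 were lower (5 without N2 replicate 2), with sums of 203 to 266 CPM in *hpl-2*(*tm1489*) and 309 to 390 CPM in N2.

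Of the somatic markers of muscle, intestine and epidermis most were lower, beside 27.6% of all tested genes. The sums were 3884 to 4482 CPM in *hpl-2*(*tm1489*) and 10481 to 15787 CPM in N2 for muscle, where 7 of 8 genes were lower, and 3670 to 5257 CPM in *hpl-2*(*tm1489*) and 11442 to 13343 CPM in N2 for the intestine, also with 7 of 8 lower (4 of 8 without N2 replicate 2). Of the epidermis and molting markers 6 of 8 were lower (241 to 398 CPM in *hpl-2*(*tm1489*) and 2791 to 3982 CPM in N2), and of the neuron markers 4 of 8 were lower (233 to 252 CPM in *hpl-2*(*tm1489*) and 304 to 354 CPM in N2). The number of neuron markers lower was 2 without N2 replicate 2 or with library size alone. The neuron marker *ric-4* was higher (0.91, edgeR adjusted p = 0.0616), but not without mutant replicate 2 (0.46, adjusted p = 0.184) or N2 replicate 2 (0.62, adjusted p = 0.329). Only 2 of 10 early embryo markers, *vet-2* and *end-3*, had enough counts to be tested, and both were higher, with the list's sum at 3.98 to 5.29 CPM in *hpl-2*(*tm1489*) and 0.316 to 0.497 CPM in N2. The part of these cell types, and of the stage of the animals, in the higher levels of the 10 genes was not tested.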

How the data were processed

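Poly(A) RNA of whole *hpl-2*(*tm1489*) animals (3 libraries) and N2 animals (2 libraries) was measured with a strand-specific kit. The authors aligned trimmed reads to WS220 with TopHat2 (version 2.0.14 in the submitters' processing notes), counted uniquely mapped reads per gene with Rsubread, and deposited the counts without normalization. The strand setting of the counting is not given in the sources used here. Table columns were matched to samples by name, and 0 were left unmatched. Library totals ran from 66490671 to 114718047 counts. ChIP-seq, J2 RIP-seq and total RNA data were not analysed here.

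Low genes were removed with filterByExpr (minimum count 10), and TMM set the library scaling. The quasi-likelihood model of edgeR 4.0.16 (R 4.3.3) was fitted to genotype (common dispersion 0.0814), with Benjamini-Hochberg adjustment over all 17498 tested genes and a call at an adjusted p under 0.1. CPM were taken over the TMM-scaled library size. Each SE is the size of the log2 fold change over the square root of F. Ratios and sums have no test. With 3 libraries against 2 an exact test of a single value cannot go below 0.1, so none was used.

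The 10 genes and all gene lists were chosen with earlier results of these data known. The text names all of the 10 genes, all genes of the centromere, outer kinetochore, checkpoint and passenger lists, and the 2 genes with the highest mean CPM in each other list of the pathway, plus any gene called against its list's direction. The rows for *sep-1* and *emb-1* were not matched and not analysed here. Alternatives were DESeq2 1.42.0, DESeq2's size factors in edgeR, library size alone, scaling by the upper quartile or to *pmp-3*, a filter at a mean count of 10 or none, a threshold of 0.05, removal of each library's trend with gene span, a replicate block, and each library left out. Removal of the trend together with leaving out *hpl-2*(*tm1489*) replicate 2 was added after the data were seen. Gene spans and neighbours came from a RefSeq table of WBcel235, in which 97.1% of the tested genes were found by name. Coordinates of that assembly are not given.

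Replicates of each genotype differed well beyond counting noise (chi-square per degree of freedom at least 97.2) and were all kept as separate replicates. The procedure was tested on simulated data in which 17214 genes passed the filter, with 200 changed by 2 on the log2 scale. It called 190 of them (95%), and 8.65% of its calls were of unchanged genes. The simulation changed a far smaller share of genes than the 61.5% called in these data. Its error rates therefore do not measure those of the calls given here.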

Additional observations from a re-analysis of the deposited data

How the results depend on the processing

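The count of 8 higher among the 10 genes stayed between 6 and 10 when 1 library was left out, and at 8 to 10 under the other normalizations, filters, tools and the stricter threshold. It was 5 with the trend with gene span removed and 5 with a replicate block. The number lower was 0 under every alternative run. The median log2 fold change of the 10 genes ran from 0.81 to 1.41, and the log2 fold change of each of the 10 stayed positive. *hcp-4* was also called with library size alone (0.96, edgeR adjusted p = 0.0342) and scaled to *pmp-3* (0.71, adjusted p = 0.0686), and *bub-1* with library size alone (0.81, adjusted p = 0.0564). Among the partners the count higher was 25 to 59 and the count lower 0 to 4 when 1 library was left out. The count lower was 6 with upper quartile scaling. For *hpl-2* the log2 fold change of -0.42 became -0.74 with upper quartile scaling (adjusted p = 0.0324), and -0.48 with the trend removed and mutant replicate 2 left out (adjusted p = 0.0641).

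The scaling set the split over all genes: 5924 were higher and 4833 lower with TMM, against 4523 and 6122 with upper quartile scaling and 6736 higher with library size alone. The median of all genes was 0.16, -0.16 and 0.41 under these scalings. The cause was not tested.

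Libraries of the genotypes share a replicate number, and the deviations of same-numbered libraries had correlations of -0.17 and -0.26. The deviations of the 2 N2 libraries from their mean are equal and opposite. These values therefore cannot decide whether same-numbered libraries were prepared together. With the replicate block 20 partners were higher (26.7% beside 25.2% of all tested genes) and 3 of 8 intestine markers were lower, and of the 10 genes *hcp-3* (0.78, adjusted p = 0.221), *knl-1* (0.78, adjusted p = 0.207) and *knl-3* (0.85, adjusted p = 0.163) were not called. A fit without an N2 library has 1 control, which is assumed to vary like the mutant libraries. The 10 genes had at least 570 counts in each library, so counting error is small beside the spread between libraries.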

Other observations

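The genes beside the 10 on the chromosome were examined, after their values had been seen. Of 20 immediate protein-coding neighbours in the RefSeq annotation, 10 were higher, 6 were lower and 4 were not called, beside 33.9% higher and 27.6% lower of all tested genes. *bub-1* lies between *lin-61*, a chromatin gene with MBT repeats, and *ztf-15*, a zinc finger gene, and its neighbours had larger log2 fold changes (1.41 and 2.63) than *bub-1* itself (0.57). *him-10* lies beside *polq-1*, a DNA polymerase theta gene (1.29). *air-2* had both neighbours higher, *B0207.6* at 1.45 and *gpa-14*, a G protein subunit gene, at 1.19. For *hcp-3*, *hcp-4*, *knl-1* and *bir-1* the neighbour on one side was higher and that on the other lower: *pri-1* (0.73) and *hlh-11* (-1.13), *guk-1* (0.92) and *pgk-1* (-1.01), *C02F5.2* (0.74) and *F09G8.5* (-0.97), and *skp-1* (0.61) and *sipa-1* (-1.52). *knl-3* and *ndc-80* had 1 neighbour lower, *cct-7* (-1.10) and *ttbk-5* (-0.58), and the other not called. Neighbour calls are from the main fit alone, and several were near the threshold. The edgeR adjusted p was 0.0800 for *pri-1*, 0.0768 for *C02F5.2*, 0.0716 for *skp-1*, 0.0733 for *ttbk-5* and 0.0555 for *gpa-14*.

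Besides *knl-2*, 3 of the 10 genes overlap a protein-coding gene in that annotation. *hcp-3* overlaps *F58A4.6* (1.44 on the log2 scale, 7389 counts over the 5 libraries against 20670 for *hcp-3*), *knl-3* overlaps *T10B5.4* (0.44, not called, 2288 counts against 28509) and *ndc-80* overlaps *ttr-39* (1.28, 2976 counts against 33309).

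Within the centromeric genes the proportions also differed between libraries. The log2 ratio of *hcp-4* to *hcp-3* counts was 0.41, 0.28 and 0.44 in *hpl-2*(*tm1489*) and 0.85 and 0.61 in N2, so all mutant libraries were below both N2 libraries. That of *knl-2* to *hcp-3* was 0.59, 0.90 and 0.60 in *hpl-2*(*tm1489*) and 0.53 and -0.84 in N2, where N2 replicate 1 was close to the mutant libraries. These ratios were chosen after the data were seen.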
